A study of Mus musculus with 7 samples.

Results

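Adrenergic receptors are the G-protein-coupled receptors for noradrenaline and adrenaline, and 8 of their genes were followed here in VMHvl, the ventrolateral division of the ventromedial nucleus of the hypothalamus, in female mice. The 8 genes, Adra1a, Adra1b, Adra1d, Adra2a, Adra2b, Adra2c, Adrb1 and Adrb3, were taken by symbol from 48321 symbols counted in every library. All 8 had at least 1 count, and 7 of them were among the 18387 genes with enough counts to be tested; Adra1d was not. RNA was sequenced from hand-dissected VMHvl of 7 ovariectomized mice, 4 h after they were injected under the skin. The injection held vehicle in 3 mice and, in the other 4, estradiol benzoate (EB), which is estradiol in esterified form, at a dose of 1 µg. Each library came from a single animal, so the error given here is variation between mice. Both groups share the ovariectomy, which removes the main source of circulating estrogen, and a mixed background with 129/Sv ancestry that goes back to a floxed Esr1 line. The labels name no Cre driver and no age. The comparison asks which transcripts differ shortly after estrogen replacement.

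Noradrenaline reaches the hypothalamus mainly from neurons of the brainstem. Alpha-1 receptors couple to Gq and phospholipase C, alpha-2 receptors to Gi, which lowers cyclic AMP, opens GIRK potassium channels and closes presynaptic calcium channels, and beta receptors to Gs and adenylyl cyclase. In the ventromedial hypothalamus of female rodents, noradrenaline is known for its part in sexual receptivity and in the response to low blood glucose.

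The largest differences lay in 2 of the 3 alpha-2 genes, so the start regions of the alpha-2 genes are shown first. The Adra2a gene (ENSMUSG00000033717.6) lies at chr19:54044151-54048982 on the plus strand of GRCm38, the assembly also named mm10. Its 2 annotated coding transcripts have 1 and 2 exons. Adra2b (ENSMUSG00000058620.5, chr2:127363208-127367221) and Adra2c (ENSMUSG00000045318.6, chr5:35278319-35281763) are single-exon genes on the plus strand. The stretches below are from RefSeq promoters of GRCm38.p6, printed 5′ to 3′ on the plus strand, at chr19:54045218-54045247, chr2:127362929-127363178 and chr5:35278504-35278533. Capitals mark a TATA box (TATAAA) for Adra2a, GC boxes (GGGCGG, here read on the other strand as CCGCCC) for Adra2b, and 1 arm of an estrogen response element (GGTCA) for Adra2c. The Adra2a and Adra2c stretches lie inside an annotated exon of GENCODE and are cut to the motif and its surroundings.
Adra2a: tcatcctggggcTATAAAaccagtccagcg
Adra2b: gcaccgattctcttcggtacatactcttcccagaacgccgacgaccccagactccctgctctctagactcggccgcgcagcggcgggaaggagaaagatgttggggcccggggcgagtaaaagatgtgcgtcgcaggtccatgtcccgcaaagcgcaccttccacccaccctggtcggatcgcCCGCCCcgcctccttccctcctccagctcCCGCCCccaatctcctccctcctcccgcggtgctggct
Adra2c: ctgcatggggcaGGTCAgttttgagtttgt

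Motifs were searched on both strands in the 300 bases around each RefSeq start, which the table held for 5 of the 8 receptor genes (Adra1b, Adra2a, Adra2b, Adra2c and Adrb1). The TATAAA of Adra2a lay 29 bases before the start and was the only one in the 5 genes, against 13.6% of 32851 mouse promoters. GC boxes were found for Adra2a, Adra2b, Adrb1 and the downstream start of Adra1b, against 35.7% of all promoters. The single arm GGTCA, which 40.5% of all promoters hold, was found for Adra2c, 50 bases before the start, and for Adra1b, and its letters were not in the windows of Adra2a, Adra2b and Adrb1. The full palindrome, GGTCA and TGACC with 3 bases of any kind between them, contains that arm and is held by 0.0700% of promoters. It was in none of the 5 genes' windows. The cyclic AMP response core TGACG, in 20.8% of promoters, was found for Adra2a, 69 bases before the start, and for Adrb1, 90 bases before it. An AP-1 site (TGAGTCA), in 5.20% of promoters, was found for Adra1b, 198 bases before its upstream start. The alpha-2A and alpha-2B windows had a GC content of 68.7% and 68.0%, above the 51.3% of Adra2c and the median of 52.7% over all promoters. Adrb1 (72.3%) and the downstream start of Adra1b (71.3%) were higher still, and the upstream start of Adra1b had 42.3%.

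Libraries held 21037303 to 33302293 counts, of which 1564 to 3141 fell in the 8 receptor genes. Estrogen-induced reference genes separated the groups: Pgr, the progesterone receptor, rose from 82.2 ± 6.70 CPM (edgeR's counts scaled to a common library size with TMM factors; SD, n = 3) to 207 ± 17.6 CPM (SD, n = 4), and Greb1, an estrogen receptor cofactor, rose by 1.45 ± 0.21 (SE) on the log2 scale. Of the markers of the dissected region, Fezf1 stood at 108 to 152 CPM, while Nr5a1, the defining transcription factor of the ventromedial nucleus, was low at 0.927 to 3.51 CPM. Slc17a6, a vesicular glutamate transporter, had 434 to 555 CPM with vehicle and 590 to 715 CPM with EB, without overlap (edgeR adjusted p = 0.111). In 8 of 10 ventromedial markers vehicle 2 was the highest vehicle library. The same held in 3 of the 7 receptors with counts in every library, Adra2a, Adra2b and Adra2c. The Esr1 level of vehicle 2, the gene of estrogen receptor alpha, was 317 CPM. It was 183 and 169 CPM in vehicle 1 and 3 and 160 to 231 CPM with EB. Over all genes it was vehicle 1 that differed most from the other vehicle mice. The chi-square per degree of freedom was 166 between vehicle 1 and 2 and 156 between vehicle 1 and 3. Between vehicle 2 and 3 it was 19.8.

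**Figure D1:**
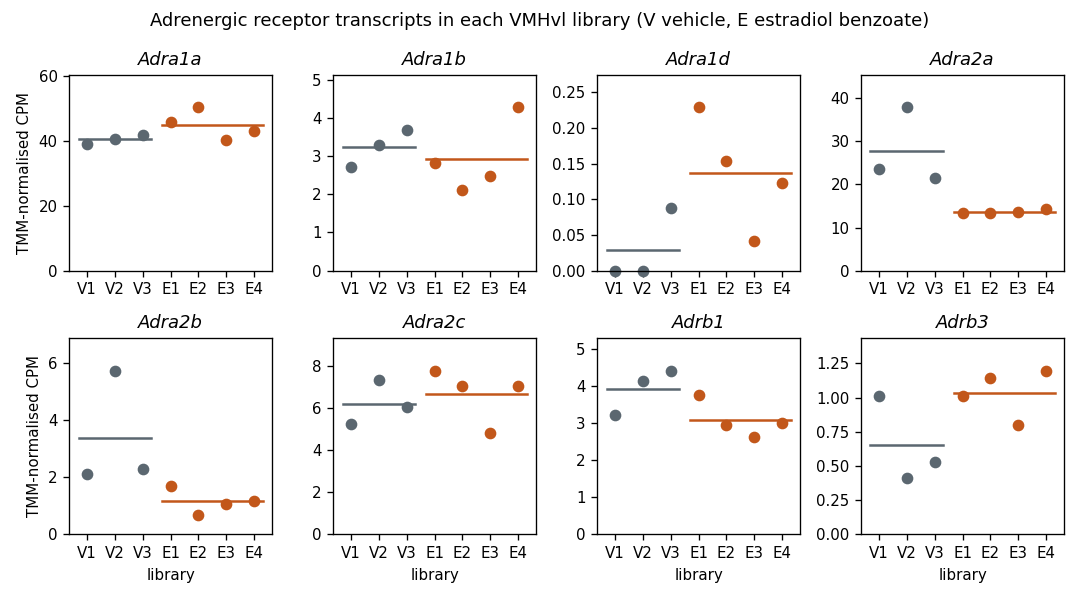
TMM-normalised CPM (vertical axis, starting at 0) of the 8 adrenergic receptor genes in each of the 7 libraries (horizontal axis; V vehicle, E estradiol benzoate), with points for single mice and lines for group means. All 4 EB points lie below all 3 vehicle points for Adra2a (13.4 to 14.4 against 21.4 to 37.9 CPM) and for Adra2b, and the groups overlap in the other 6 panels.

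Of the 7 tested receptors, 1 was called lower with EB (Adra2a) and 0 higher, at a Benjamini-Hochberg adjusted p below 0.05 over all tested genes in edgeR's quasi-likelihood test. Over all tested genes the same rule called 0.207% lower and 0.745% higher. At an unadjusted p below 0.05 stood 2 receptors, Adra2a and Adra2b, both lower, where the share of all genes was 9.04%. DESeq2 called 2 receptors, limma-voom 1, and neither called any higher. Of the 18387 tested genes, DESeq2 called 125 lower and 234 higher, limma-voom 35 and 115, and edgeR 38 and 137. The groups of mice did not overlap in Adra2a and Adra2b. Over all tested genes 9.10% had no overlap, and 3.99% had none with EB the lower group. The log2 changes of the 7 were negative in 4 and had a median of −0.16, beside 9481 negative genes of 18387 and a median of −0.0077 over all genes.

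Adra2a, the alpha-2A receptor, is the main inhibitory autoreceptor of noradrenergic terminals and is also found on the neurons they contact. It had 23.7, 37.9 and 21.4 CPM in vehicle 1 to 3, from 609, 1196 and 486 counts. With EB it had 13.4, 13.4, 13.7 and 14.4 CPM in EB 1 to 4, from 410, 434, 325 and 349 counts. Every EB mouse was below every vehicle mouse, vehicle 2 was well above the other vehicle mice, and the EB mice were close together. The coefficient of variation was 32.3% over vehicle mice and 3.38% over EB mice. The mean fell from 27.7 ± 8.93 CPM (SD, n = 3) to 13.7 ± 0.463 CPM (SD, n = 4), a log2 change of −1.02 ± 0.17 (SE) with a 95% confidence interval from −1.39 to −0.65 (edgeR quasi-likelihood test with Benjamini-Hochberg adjustment, adjusted p = 0.00910). Its p ranked 15 among genes with a negative change and 90 among all tested genes. Without vehicle 2 the change was −0.72 ± 0.13 (SE, edgeR adjusted p = 0.0182), the smallest of those with 1 library left out. In bulk tissue, fewer cells that carry the receptor and less receptor RNA per cell cannot be told apart.

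Some other measures moved in the same libraries. Of the 10 ventromedial markers, 3 were called higher with EB by edgeR's test, Pgr, Cckar and Nptx2, and 0 were called lower. Not called but without overlap were Slc17a6, higher with EB, and Rprm, lower with EB. The summed level of the list overlapped (1299 to 1913 CPM with vehicle, 1534 to 1757 CPM with EB). Pgr is also an estrogen-induced reference gene, so the list does not measure the content of the region alone. With the level of Esr1 as a covariate, chosen after seeing the data, the change of Adra2a was −0.85 ± 0.13 (SE, edgeR adjusted p = 0.00567). The summed level of 5 microglia markers was 102 to 105 CPM with vehicle and 85.2 to 99.6 CPM with EB, without overlap. Of the 5, only P2ry12 had no overlap on its own (40.3 to 42.1 CPM with vehicle, 27.7 to 34.7 CPM with EB). Cx3cr1 and Aif1 overlapped and had their lowest value with EB. Tmem119 had 5.70 to 7.27 CPM with vehicle and 5.94 to 8.72 CPM with EB. Csf1r had 30.9 to 34.0 CPM with vehicle and 30.6 to 36.8 CPM with EB. Both Tmem119 and Csf1r overlapped and had their highest value with EB. With the mean level of the 5 microglia markers as a covariate, Adra2a changed by −1.12 ± 0.25 (SE), against −1.02 ± 0.17 without it. This covariate was also chosen after seeing the data, and the call of Adra2a ended with it (edgeR adjusted p = 0.185). Since the summed microglia level did not overlap between the groups, this covariate and the treatment cannot be fully told apart. The model with this covariate called 25 genes in all, against 175 without it. The call of Greb1 ended in it too (edgeR adjusted p = 0.130), while that of Pgr stayed (edgeR adjusted p = 0.000302). Of 10 markers of arcuate and neighbouring GABA neurons, 9 were tested and 1, Isl1, fell, while their summed level overlapped (663 to 940 CPM with vehicle, 787 to 917 CPM with EB). With the arcuate and GABA list as a covariate, Adra2a changed by −0.99 ± 0.18 (SE, edgeR adjusted p = 0.0268). The summed levels of the astrocyte, oligodendrocyte, endothelial, mural and fibroblast, and pituitary markers overlapped between the groups. The endothelial sum was 81.5 to 128 CPM with vehicle, 91.6 CPM in EB 4 and 67.3 to 69.1 CPM in EB 1 to 3, and 1 of its 6 markers, Flt1, had no overlap (43.0 to 56.2 CPM with vehicle, 28.1 to 40.8 CPM with EB). Beside the 1 of 6 endothelial and 1 of 5 microglia markers, 9.10% of all tested genes had no overlap between the groups. The part of the endothelial markers in the result was not tested.

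Adra2b, the alpha-2B receptor, is known best from vascular and thalamic tissue. It had 2.10, 5.70 and 2.29 CPM in vehicle 1 to 3, from 54, 180 and 52 counts. With EB it had 1.70, 0.678, 1.05 and 1.15 CPM, from 52, 22, 25 and 28 counts. The groups did not overlap, but EB 1 came near vehicle 1 and 3, and vehicle 2 held more than the other vehicle mice together. The means were 3.36 ± 2.03 CPM (SD, n = 3) and 1.15 ± 0.422 CPM (SD, n = 4), and the log2 change was −1.60 ± 0.43 (SE; 95% confidence interval −2.52 to −0.68), which did not pass the test (edgeR adjusted p = 0.141). Without vehicle 2 it was −0.93 ± 0.41 (SE, edgeR adjusted p = 0.529). Adra2b was called by DESeq2 (adjusted p = 0.0321), by edgeR on all genes with any count (0.00116) and with mural cell and fibroblast markers as a covariate (edgeR, 0.0392). The summed level of those 8 markers overlapped between groups, at 123 to 311 CPM with vehicle and 142 to 243 CPM with EB.

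Adra2c, the alpha-2C receptor, is a further inhibitory autoreceptor and is prominent in striatum. It had 5.21, 7.32 and 6.03 CPM in vehicle 1 to 3 and 7.74, 7.02, 4.80 and 7.04 CPM in EB 1 to 4. The groups overlapped over most of their range. The log2 change was 0.11 ± 0.21 (SE; 95% confidence interval −0.34 to 0.55; edgeR adjusted p = 0.940), and −0.0092 without vehicle 1.

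**Figure D2:**
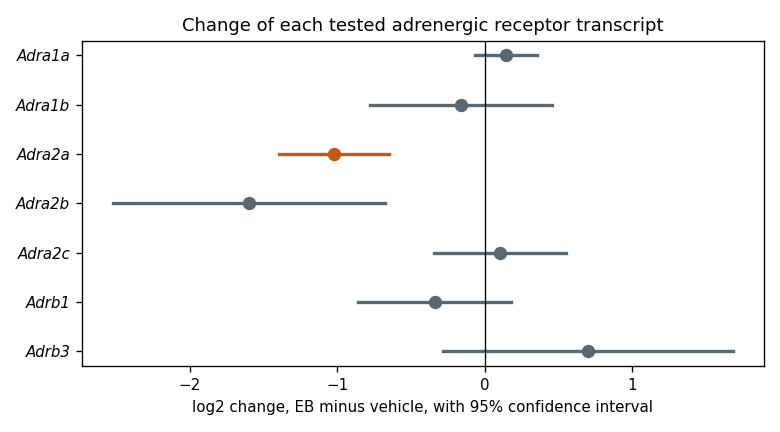
Log2 change from vehicle to EB (horizontal axis) of the 7 tested adrenergic receptor genes, with points for the edgeR estimate and bars for its 95% confidence interval; orange marks an adjusted p below 0.05. The intervals of Adra2a (−1.39 to −0.65) and Adra2b (−2.52 to −0.68) lie below 0, and the other 5 include 0.

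Whether Adra2a changed differently from the other receptors was tested on the log2 ratio of its counts to theirs within each library, by a two-sided exact permutation test over the 35 ways to split 7 mice, adjusted over 6 ratios. Adra2a counts were 4.53, 5.17 and 3.54 times those of Adra2c in vehicle 1 to 3 and 1.73, 1.90, 2.84 and 2.04 times in EB 1 to 4. The groups did not overlap, and the mean log2 ratio went from 2.12 ± 0.277 (SD, n = 3) to 1.06 ± 0.312 (SD, n = 4), a difference of −1.06. The exact permutation p was 0.0286, the smallest that 3 against 4 mice can give, and 0.0571 after Benjamini-Hochberg adjustment. The ratios to Adra1a and Adrb3 gave the same exact permutation p and adjusted p, with differences of −1.11 and −1.71. The ratio to Adra2b differed by 0.49 the other way (exact permutation p = 0.257, adjusted 0.257), with overlapping groups. The ratios to Adrb1 and Adra1b had exact permutation p-values of 0.0571 and 0.0857 (adjusted 0.0857 and 0.103). None of the 6 ratios passed an adjusted p of 0.05. With these numbers of mice a ratio could pass only if most of the 6 reached the smallest p together. The lack of a pass therefore does not decide whether Adra2a changed differently from a given receptor. Adra2a was made the reference because earlier results of these data had called it. That choice favours small p-values for its ratios to receptors that changed little. The p-values of the ratios are therefore a description and no independent support for the call of Adra2a.

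The alpha-1 genes did not pass the test. Adra1a (ENSMUSG00000045875.13, chr14:66635251-66771168, plus strand), the alpha-1A receptor, had the most counts of the 8. It had 38.9, 40.7 and 41.9 CPM in vehicle 1 to 3 and 45.8, 50.3, 40.4 and 42.9 CPM in EB 1 to 4. EB 3 lay within the vehicle range and the other EB mice above it. The log2 change was 0.15 ± 0.10 (SE; 95% confidence interval −0.06 to 0.36; edgeR adjusted p = 0.731), so a change beyond 1.28-fold upward lay outside the interval.

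Adra1b (ENSMUSG00000050541.14, chr11:43774606-43901210, minus strand), the alpha-1B receptor, is known as an estrogen-responsive receptor of the female rodent hypothalamus. It had 2.72, 3.29 and 3.70 CPM in vehicle 1 to 3 and 2.81, 2.13, 2.49 and 4.28 CPM in EB 1 to 4. Both the lowest and the highest value were EB mice. The log2 change was −0.16 ± 0.29 (SE; 95% confidence interval −0.78 to 0.46; edgeR adjusted p = 0.935).

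Adra1d (ENSMUSG00000027335.9, chr2:131545850-131562283, minus strand), the alpha-1D receptor, was close to the limit of detection and was not tested. It had 0, 0 and 2 counts in vehicle 1 to 3 and 7, 5, 1 and 3 counts in EB 1 to 4, which sums to 2 and 16 counts. A count of 0 allows up to 3 counts, or 0.117 CPM in vehicle 1 and 0.0950 CPM in vehicle 2, counting error only. The gene overlaps Gm14285 on the other strand, and with the use of strand in counting not known its few reads are uncertain.

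The beta genes did not pass the test either. Adrb1 (ENSMUSG00000035283.5, chr19:56722199-56733113, plus strand), the beta-1 receptor, had 3.23, 4.15 and 4.40 CPM in vehicle 1 to 3 and 3.76, 2.96, 2.61 and 3.00 CPM in EB 1 to 4. Only EB 1 reached into the vehicle range. The log2 change was −0.34 ± 0.24 (SE; 95% confidence interval −0.86 to 0.18; edgeR adjusted p = 0.757).

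Adrb3 (ENSMUSG00000031489.15, chr8:27225776-27250616, minus strand), the beta-3 receptor best known from fat tissue, had 26, 13 and 12 counts in vehicle 1 to 3 and 31, 37, 19 and 29 counts in EB 1 to 4. In CPM these were 1.01, 0.412 and 0.528 with vehicle and 1.01, 1.14, 0.800 and 1.19 with EB, and vehicle 1 lay among the EB mice. The log2 change was 0.70 ± 0.46 (SE; 95% confidence interval −0.28 to 1.68; edgeR adjusted p = 0.723). Adrb3 overlaps Gm45470 on the other strand, so its reads are uncertain in the same way.

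Levels of different receptors were compared as CPM per kilobase of merged exons. With vehicle, Adra2a (5.72 ± 1.85 CPM per kilobase, SD, n = 3; 4.43 to 7.84) and Adra1a (4.64 ± 0.171; 4.46 to 4.80) were the highest, and their ranges overlapped. Adra2c followed (1.80 ± 0.308), then Adrb1 (1.16 ± 0.183), Adra1b (0.957 ± 0.145) and Adra2b (0.838 ± 0.505), which overlapped one another, then Adrb3 (0.193 ± 0.0940) and Adra1d (0.0155). With EB, Adra1a (5.14 ± 0.488 CPM per kilobase, SD, n = 4) stood above Adra2a (2.84 ± 0.0958) without overlap, and Adra2a above Adra2c (1.93 ± 0.371). Adrb1 (0.911 ± 0.143) and Adra1b (0.865 ± 0.280) overlapped, as did Adrb3 (0.307 ± 0.0518) and Adra2b (0.285 ± 0.105). The first place depends on the length used: over its longest coding transcript (4282 bases, against 8728 merged), Adra1a had 9.47 CPM per kilobase with vehicle and was first in both groups.

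In the same units, alpha-2 transcripts made up 53.7% (47.7% to 62.0%) of the level of the 8 receptors with vehicle and 40.9% (39.3% to 41.7%) with EB, and alpha-1 transcripts 37.3% (30.7% to 42.0%) and 49.2% (47.5% to 51.1%). The beta transcripts made up 8.99% and 9.84%. Adra2a alone went from 36.8% (31.3% to 42.7%) to 23.1% (21.2% to 26.0%). With the longest coding transcript as length, the alpha-2 share was 40.4% and 28.2%, and alpha-1 was the larger class in both groups. Shares sum to a fixed total, so they are given as a description with no test.

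**Figure D3:**
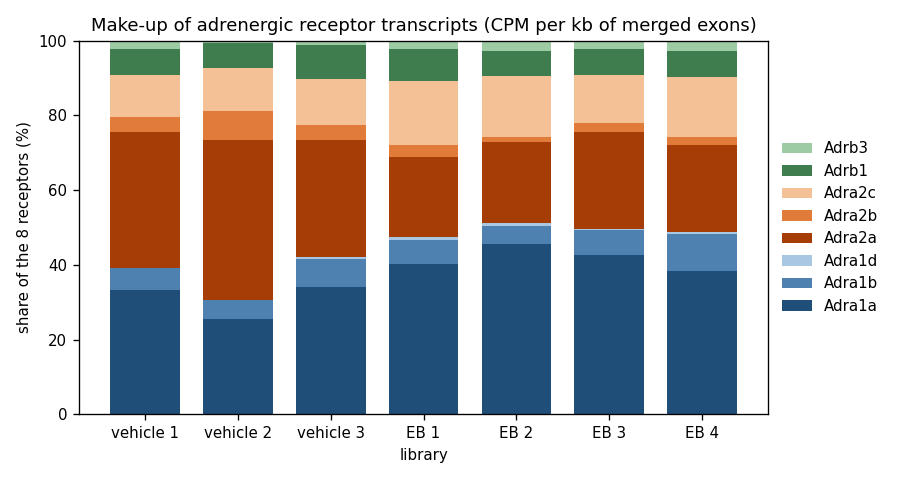
Share of the summed level of the 8 adrenergic receptor genes (vertical axis, percent of CPM per kilobase of merged exons) in each library (horizontal axis), with blue for alpha-1, orange for alpha-2 and green for beta genes. The Adra2a segment is 31.3% to 42.7% in the vehicle libraries and 21.2% to 26.0% in the EB libraries.

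Around the receptors, 60 genes in 6 lists of ligand metabolism and signalling partners were examined, of which 57 were tested. By edgeR's quasi-likelihood test 1 was called, Prkar2a, and 5 had an unadjusted p below 0.05; DESeq2 and limma-voom also called 1 each, the same gene. Beside this, edgeR called 0.952% of all tested genes, and 9.04% had an unadjusted p below 0.05. Of the 18387 tested genes, DESeq2 called 359 and limma-voom 150.

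Of 13 genes of catecholamine synthesis, transport and breakdown, 10 were tested and 0 called (1 at an unadjusted p below 0.05), with 4 positive and 6 negative changes and a median of −0.06. Dbh, which makes noradrenaline from dopamine, had 0 to 8 counts in a library, and Slc6a2, the noradrenaline transporter, had 4 counts in EB 3 and 0 in the other 6 libraries. Phox2a, a transcription factor that defines noradrenergic neurons, was at 0 in every library. The summed level of the 5 noradrenergic markers, 6.87 to 11.7 CPM with vehicle and 9.31 to 14.2 CPM with EB, was nearly all Th, which dopamine neurons also express.

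The 10 G protein alpha subunits had 0 calls, 1 gene with an unadjusted p below 0.05 and a median of 0.02; the smallest p was that of Gnaz, a Gi family subunit (log2 −0.20 ± 0.08, SE; edgeR adjusted p = 0.471). The 7 receptor kinases and arrestins had 0 calls, 0 with an unadjusted p below 0.05 and a median of 0.10; Grk5, a receptor kinase, was at −0.25 ± 0.15 (SE; edgeR adjusted p = 0.682). The 10 genes of phospholipase C beta and calcium release, downstream of alpha-1 receptors, also had 0 calls and 0 below an unadjusted p of 0.05, with a median of −0.03. Prkcb, a protein kinase C, had the smallest p there (log2 0.07 ± 0.08, SE; edgeR adjusted p = 0.870).

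Among the 6 GIRK and presynaptic calcium channel genes, downstream of alpha-2 receptors, 0 were called, 1 had an unadjusted p below 0.05 and the median was −0.07. Kcnj5, a GIRK subunit, had 18.8, 11.2 and 22.5 CPM in vehicle 1 to 3 and 13.0, 15.8, 9.52 and 10.5 CPM in EB 1 to 4, which overlapped (log2 −0.50 ± 0.23, SE; edgeR adjusted p = 0.546).

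Of 14 adenylyl cyclase and protein kinase A genes, 1 was called, 2 had an unadjusted p below 0.05 and the median was −0.02. Prkar2a, a type II regulatory subunit of protein kinase A, had 186, 208 and 190 CPM in vehicle 1 to 3 and 269, 232, 239 and 251 CPM in EB 1 to 4. Every EB mouse was above every vehicle mouse. It rose from 195 ± 11.8 CPM (SD, n = 3) to 248 ± 15.9 CPM (SD, n = 4), a log2 change of 0.35 ± 0.07 (SE; edgeR adjusted p = 0.0309). The call was lost without any 1 library other than vehicle 2 (edgeR adjusted p = 0.0502 without EB 2, 0.0505 without EB 3, 0.0796 without EB 4, 0.125 without EB 1, 0.127 without vehicle 1 and 0.175 without vehicle 3). The other gene with an unadjusted p below 0.05 was Prkar2b, the second type II regulatory subunit, with 65.7, 66.0 and 63.5 CPM in vehicle 1 to 3 and 55.8, 58.9, 52.2 and 50.9 CPM in EB 1 to 4. Its groups did not overlap, and its log2 change of −0.26 ± 0.08 (SE) did not pass the test (edgeR adjusted p = 0.258).

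**Figure D4:**
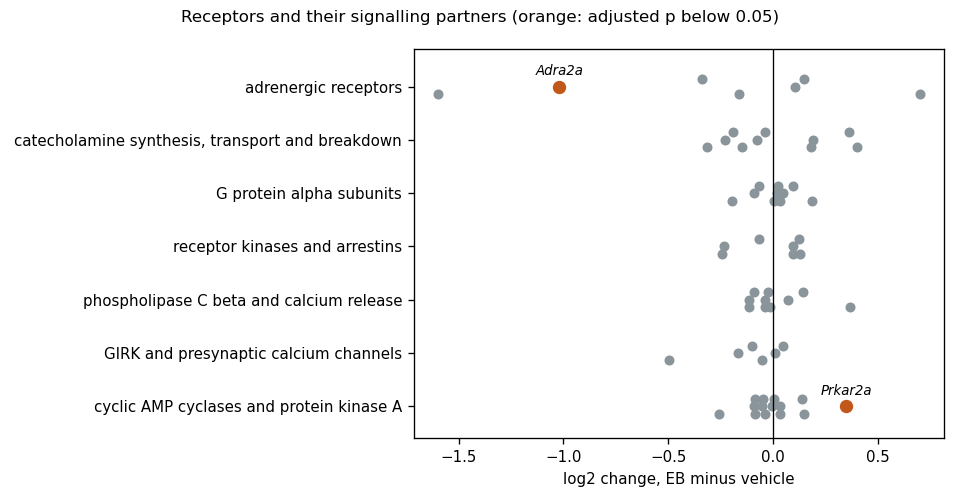
Log2 change from vehicle to EB (horizontal axis) of every tested adrenergic receptor gene and of the tested genes in 6 lists of signalling partners (rows), with 1 point per gene; orange marks an edgeR adjusted p below 0.05. Adra2a (−1.02) and Prkar2a (0.35) are the called genes, and the partner lists lie between −0.50 and 0.40.

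The genes whose pattern over the 7 libraries was most like that of Adra2a were found by the root mean square difference of mean-centred log2 CPM, among tested genes with a mean of at least 1 CPM and a named symbol. They were Rprm (0.158), the cell-cycle gene Reprimo, Htr1a (0.168), a Gi-coupled serotonin receptor, Eps8l1 (0.175), a regulator of actin, Adamts5 (0.183), a matrix protease, and Snora23 (0.185), a small nucleolar RNA. For comparison, the receptor nearest to Adra2a was Adrb1 at 0.422, followed by Adra2b at 0.471, Adra1b at 0.533 and Adra2c at 0.583. Adra1a stood at 0.608 and Adrb3 at 1.01. The measure is not scaled to the size of a change, so this order does not rank likeness of direction. Adra2b changed by −1.60 on the log2 scale without overlap of the groups, and Adrb1 by −0.34 with overlap. Htr1a had 34.4, 46.8 and 37.9 CPM in vehicle 1 to 3 and 23.5, 19.3, 21.1 and 20.4 CPM in EB 1 to 4. Of these 5 genes Htr1a alone was called (log2 −0.92, edgeR adjusted p = 0.00186), and the log2 changes of the other 4 lay between −0.93 and −0.74. With the microglia covariate the call of Htr1a ended (log2 −1.03, edgeR adjusted p = 0.0547). Without vehicle 2 the log2 change was −0.78 for Htr1a, −0.40 for Rprm, −0.50 for Adamts5, −0.51 for Eps8l1 and −0.61 for Snora23. Rprm, which is listed as a marker of the VMHvl, had 58.9, 98.9 and 52.0 CPM in vehicle 1 to 3 and 41.6, 38.7, 45.9 and 41.8 CPM in EB 1 to 4 (edgeR adjusted p = 0.169). Since the 5 genes were chosen by their likeness to Adra2a in these same libraries, their lower EB values and their highest value in vehicle 2 follow from the choice and are a description only.

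**Figure D5:**
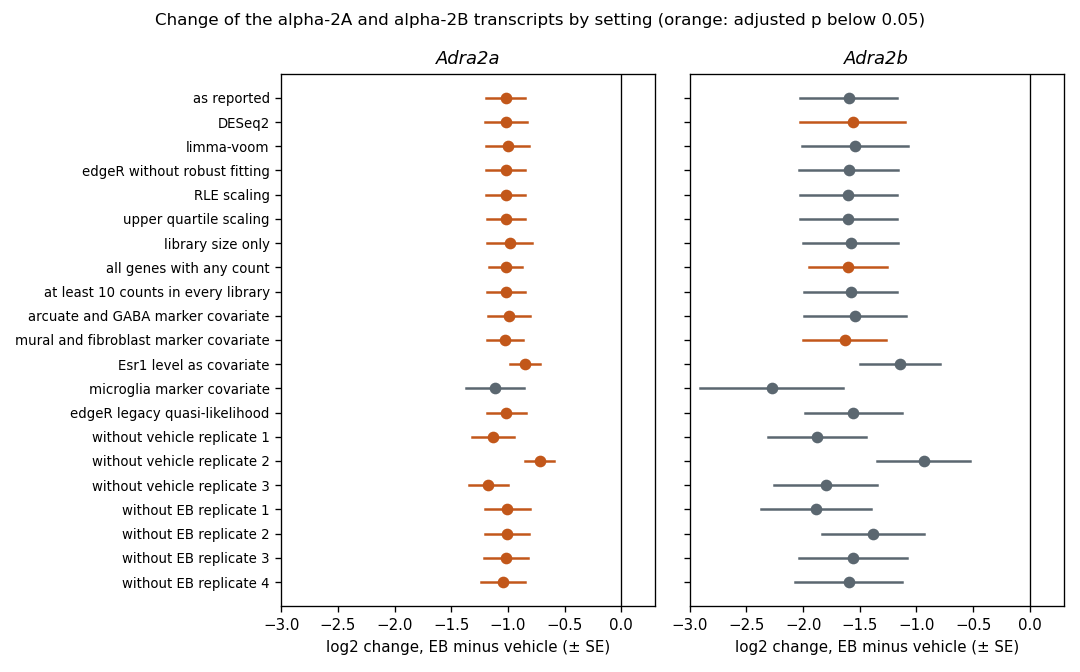
Log2 change from vehicle to EB with its SE (horizontal axis) of Adra2a (left) and Adra2b (right) as reported and under 20 other settings (rows); orange marks an adjusted p below 0.05. Adra2a lies between −1.17 and −0.72 and is orange in 19 of the 20, while Adra2b lies between −2.28 and −0.93 and is orange in 3.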

How the data were processed

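The authors deposited raw counts per gene symbol for each of 7 libraries, 1 mouse each. Per the labels' protocols, the Tecan/NuGEN Trio kit was used, with an RNA input of 15 ng. Per the submitters' processing notes, HISAT2, HTSeq and DESeq2 were used with mm10. Not given in the sources used here: versions, annotation, strand use and the treatment of multiply mapped reads. Those choices can move reads between overlapping genes.

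The 8 receptors, the gene lists and the tests were chosen with earlier results of these data known. Genes were kept by filterByExpr (minimum count 10), so that 18387 of the 31222 detected genes were tested. After TMM scaling, the test was that of edgeR 4.0.16 in R 4.3.3 (estimateDisp, glmQLFit with robust fitting and the adjusted quasi-likelihood estimate, glmQLFTest), with no covariate, and p-values were adjusted over all tested genes by Benjamini-Hochberg. The fit run first used edgeR's legacy estimate and called 169 genes; the adjusted estimate, which calls 175, was adopted after that count was seen, to match an earlier analysis of these data, and Adra2a is called under both. SEs are the absolute log2 change over the square root of F; for DESeq2 and limma-voom they are the tools' own. Log2 ratios used a prior count of 0.5. The code was tested on simulated data. Replicate pairs differed by more than sampling noise (chi-square per degree of freedom 17.0 to 166).

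The text names the 8 receptors, every called gene of a partner list, otherwise the gene of smallest p in each list (for 1 list it is not reported here), Esr1, Pgr and Greb1, and the 5 genes most like Adra2a. Fezf1, Slc17a6, Nr5a1, Isl1, P2ry12, Flt1, Cckar, Nptx2, Dbh, Slc6a2, Th and Phox2a (markers and list genes) and Prkar2b were named after their values were seen. So were the microglia markers Tmem119, Csf1r, Cx3cr1 and Aif1. Grk2 and Grk3 are under their older symbols in the files. Alternatives were DESeq2 1.42.0, limma-voom (limma 3.58.1), other scalings, filters and covariates, and each library left out. Positions are from GENCODE M21 (GRCm38), promoters from RefSeq GRCm38.p6. Figures used matplotlib 3.10.9.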

Additional observations from a re-analysis of the deposited data

How the results depend on the processing

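Of 20 alternatives to the edgeR fit, 19 called Adra2a (log2 −1.17 to −0.72, also the range with 1 library left out); the exception was the microglia covariate (−1.12, adjusted p = 0.185). The microglia and Esr1 covariates and edgeR's legacy quasi-likelihood estimate were chosen after seeing the data. Receptors called lower numbered 1 as reported, 2 under DESeq2, 2 on all genes with any count, 2 with the mural and fibroblast covariate and 0 with the microglia covariate, and 1 with any single library left out; receptors called higher numbered 0 in every alternative. Over all genes, 175 were called (38 lower, 137 higher), against 359 under DESeq2 (125 and 234), 375 with any count (135 and 240), 25 with the microglia covariate (0 and 25), and 102 to 152 with 1 library left out, the fewest without vehicle 3 (102) and without EB 1 (107). With the mural and fibroblast covariate 234 genes were called, 70 lower and 164 higher. Lower calls were 21.7% of calls as reported, 34.8% under DESeq2, 36% with any count and 13.3% with library size only. In the partner lists 1 gene was called, 0 with library size only, 0 with the arcuate covariate, 0 with the microglia covariate, and 0 to 1 with 1 library left out. The log2 change turned sign for Adra2c (−0.0092 without vehicle 1; −0.0092 to 0.25 with 1 library left out) and Esr1 (0.13 without vehicle 2; −0.38 to 0.13). The ratio of Adra2a to Adra2c kept its direction, with differences of −1.21 to −0.94 with 1 library left out, where the smallest exact permutation p is 0.0667 (2 against 4 mice) or 0.1 (3 against 3), so these fits could not pass 0.05. Coding length raised all levels per kilobase and put Adra2b above Adra1b with vehicle, since the same CPM were divided by other, shorter lengths. The cause of the other shifts was not tested. No paired analysis was possible because no replicate number is shared between the groups in the labels. The numbers given to mice here only name them and pair no vehicle mouse with an EB mouse.

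Depth limits Adra1d (0 to 7 counts) and Adrb3 (12 to 37 counts) most. With 3 against 4 mice no exact permutation p falls below 0.0286.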
